A study of Mus musculus with 9 samples.

Results

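Transcript levels in mouse podocytes of a cell line given siRNA 1 against Usp40 were set directly against those in the same cells given siRNA 2 against Usp40. The comparison used 6 of the 9 libraries of the study, 3 with siRNA 1 and 3 with siRNA 2, and it was made over the 11716 of 25655 genes that passed a filter on low counts. The siRNA 1 cells were transfected with the Silencer Select reagent s105625 and the siRNA 2 cells with s105626. The 3 control libraries came from cells given a non-targeting Silencer Select siRNA. They took no part in the test and are printed to show where each difference lay. All cells were of an immortalized wild-type line that divides at 33 °C with interferon-γ, had been differentiated at 37 °C without it for 10 to 14 days, and were harvested 48 h after transfection with Lipofectamine RNAiMAX. The libraries are labelled as biological triplicates of batch 1, but the labels do not name separate cultures, so each p-value reflects only how these libraries vary.

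Podocytes are the epithelial cells whose interlocking foot processes cover the kidney's filtration barrier, and USP40 belongs to the ubiquitin-specific proteases, enzymes that take ubiquitin off other proteins. An siRNA is a short RNA duplex. One strand is loaded into an Argonaute protein and guides it to a fully matching transcript, which is cut. The same strand can also lower other transcripts by pairing through its seed, a short stretch near its 5′ end, with matching letters, most often in 3′ untranslated regions (UTRs). Reagents against 1 gene that differ in sequence therefore share the intended target and differ in their seeds.

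Gene counts came to 11895046, 11227198 and 11777961 in the siRNA 1 libraries, to 9786270, 12653723 and 13675426 in the siRNA 2 libraries, and to between 10784049 and 12390673 in the control libraries. The first principal component of the 6 siRNA libraries, with 42.1% of the variance, put all siRNA 1 libraries on one side (-19.5, -4.87 and -16.6) and all siRNA 2 libraries on the other (14.0, 11.3 and 15.6). Replicate 2 of siRNA 1 lay nearest to the other group and differed from its replicates along transcript length (Spearman's rho of 0.574 across genes between its deviation and length, against -0.450 and -0.277 in replicates 1 and 3). Libraries of the other groups deviated along length as well. The rho was -0.00194, -0.361 and 0.370 in replicates 1, 2 and 3 of siRNA 2. It was -0.520, 0.255 and 0.424 in the control replicates. The cells were checked against podocyte markers: of 34 podocyte identity genes, 23 had enough counts to be tested. Cd2ap had 39366 counts over all 9 libraries, Actn4 56934 and Podxl 4066, but Nphs1, which encodes the slit diaphragm protein nephrin, had 2, Wt1 had 40, and Ptpro, Kirrel2 and Tcf21 had none. Of 19 tubular and parietal genes, Cdh16 and Pax2 had the most counts, 82923 and 31882. In the same list 9 genes had under 50 counts, among them Cdh1 with 12, Epcam with 14 and Aqp2 with none. In bulk RNA, fewer cells of a type and less RNA per cell cannot be told apart.

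The targeted transcript itself was the first comparison. Usp40 (ENSMUSG00000005501, GRCm39 chromosome 1, 87872841 to 87936273, minus strand) had 14.7, 15.6 and 16.8 CPM (read counts scaled to library size) with siRNA 1 and 19.1, 17.3 and 21.2 CPM with siRNA 2, against 31.8, 33.8 and 40.9 CPM in controls. Every siRNA 1 library lay below every siRNA 2 library, and all 6 lay below every control library. The means were 15.7 ± 1.09 CPM with siRNA 1 and 19.2 ± 1.96 CPM with siRNA 2 (SD, n = 3 each). The log2 fold change of siRNA 1 over siRNA 2 was -0.29 (SE 0.104), and it did not pass the test (edgeR quasi-likelihood test, Benjamini-Hochberg adjusted p = 0.0989), so a difference in the Usp40 level the siRNAs left was not shown at this depth. The values rest on 173, 174 and 196 reads with siRNA 1 and on 190, 222 and 295 reads with siRNA 2. The end of Usp40 overlaps Dgkd on the other strand by 62 bp, and no source used here states if reads were assigned by strand.

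Beyond their shared target the siRNAs left different transcriptomes. At an edgeR adjusted p under 0.05, 790 genes were higher with siRNA 1 than with siRNA 2, which is 6.74% of the genes tested, and 494 genes were lower, which is 4.22%. Either call was made for 11.0% of genes. In each of the 6 fits that left out 1 library, 317 of the higher genes (2.71% of all genes) and 141 of the lower genes (1.2%) were called again. Most differences were small: the median size was 0.40 on the log2 scale for the higher genes and 0.37 for the lower genes, and 32 higher and 10 lower genes differed by at least 1. The siRNA 1 and siRNA 2 libraries did not overlap in 788 of the 790 higher genes and in all 494 lower genes, whereas they did not overlap in 31.0% of all genes tested. Leaving out replicate 2 of siRNA 1 gave 1715 higher and 1680 lower genes, while leaving out replicate 3 of siRNA 1 gave 374 and 174, and leaving out replicate 1, 2 or 3 of siRNA 2 gave 445 and 199, 443 and 293, and 365 and 188. The log2 fold change also fell with transcript length (Spearman's rho of -0.287 across 11716 genes, which are not independent replicates): among the 3906 longest genes 239 were higher and 263 lower, and among the 3907 shortest 295 were higher and 64 lower. When that trend was removed within the fit, 1134 genes were higher and 883 lower, and these held 745 of the 790 and 477 of the 494.

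**Figure D1:**
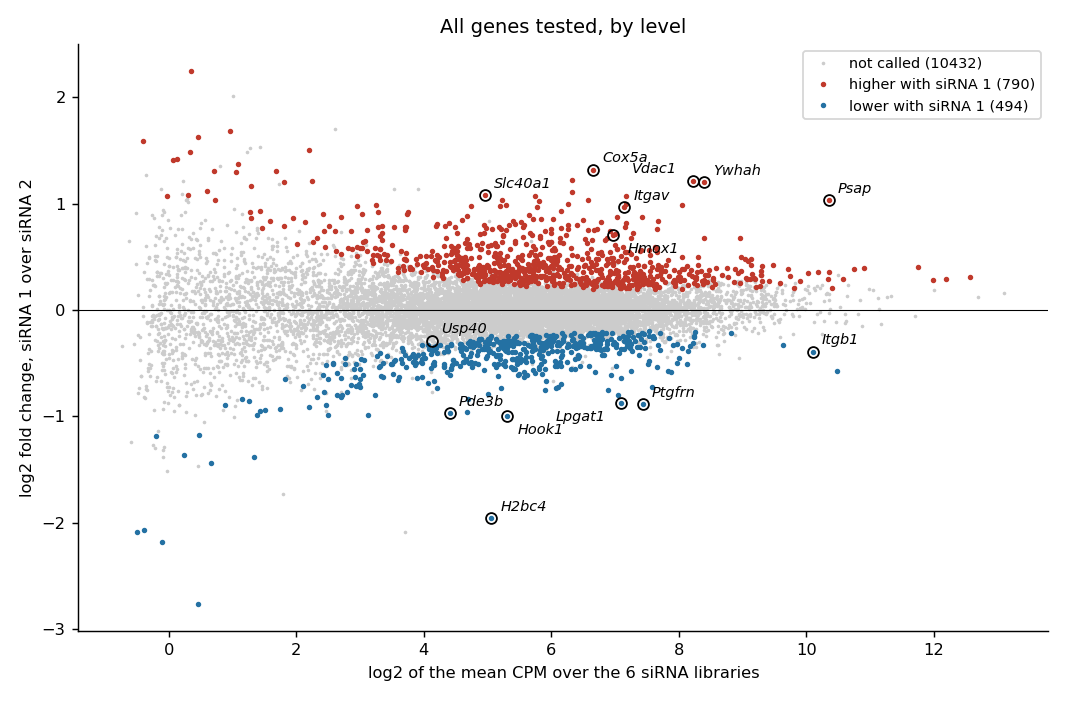
Log2 fold change of siRNA 1 over siRNA 2 (vertical axis) against the log2 of the mean CPM over the 6 siRNA libraries (horizontal axis), 1 point per gene tested. The 790 higher genes (red) and 494 lower genes (blue) at an edgeR adjusted p under 0.05 spread over low and high expression levels, and the other 10432 genes are grey.

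The letters found most often in the called genes relative to all genes are shown first, since many of the genes with the largest differences carry them. All 7-letter words that occur in the 3′ UTRs of at least 200 tested genes, 14123 words in all, were ranked by how much more often the called genes held them than all tested genes, on the sense strand. The words were thus chosen by the same differences that they describe, and their counts carry no test. For the higher genes the leading words were GGACTTA (word A) and GACTTAA (word B), which overlap by 6 letters and read GGACTTAA where they run together. For the lower genes the leading word was GTTATAC (word C). Stretches of 25 bases around the word are given 5′ to 3′ on the transcript strand, with the letters of the words in capitals, from the 3′ UTRs of genes with large differences in GRCm39.
Cox5a: gcttcctaaGGACTTAActgctatt
Rcn2: ccttcacaaGGACTTAAacctcaca
Vdac1: agtcattcaGGACTTAAttcttcct
Ywhah: aaatgttttGGACTTAAaagagtaa
Slc40a1: ggtacagaaGGACTTAAagcttgtt
Mcm4: atagcacctGGACTTAActttcttt
Itgav: tgttcttagGGACTTAAgtgatgga
Psap: gatctatttGACTTAAtaagtagga
Hook1: tgactggatGTTATACacttcacaa
Pde3b: aggacctttGTTATACttagcaaaa
Ptgfrn: ctatccaagGTTATACaaactaatt
Lpgat1: aatgagacaGTTATACattcaactg
Ero1b: aaattgtaaGTTATACtaatgccat
Itgb1: ccagggctgGTTATACagaatcaaa
The first 8 genes were higher and the last 6 lower with siRNA 1. The stretches lie at chr9:57439569-57439593 in Cox5a, chr9:55965947-55965971 in Rcn2, chr11:52279898-52279922 in Vdac1, chr5:33185262-33185286 in Ywhah, chr2:83633889-83633913 in Itgav and chr10:60137561-60137585 in Psap, all on the plus strand. Those of Slc40a1 (chr1:45947852-45947876) and Mcm4 (chr16:15442091-15442115) lie on the minus strand. The word C stretches lie at chr4:95913241-95913265 in Hook1, chr7:114136034-114136058 in Pde3b, chr1:191514681-191514705 in Lpgat1, chr13:12621975-12621999 in Ero1b and chr8:129458942-129458966 in Itgb1 on the plus strand, and at chr3:100947634-100947658 in Ptgfrn on the minus strand.

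Word A or B stood in the 3′ UTR of 385 of the 774 higher genes with an annotated 3′ UTR (49.7%), of 57 of 489 lower genes (11.7%) and of 1780 of all 11483 genes (15.5%). Word A alone was in 27.8% of the higher genes and 7.82% of all genes, and word B in 39.1% and 11.4%. Word C stood in 123 of the 489 lower genes (25.2%) and in 592 of all genes (5.16%), and the next word down the lower list, CATCGGT, was 2.88 times as frequent in the lower genes as in all genes, against 4.88 times for word C. Longer UTRs hold more words of any kind, and the 3′ UTRs of the lower genes had a median of 2029 bases and those of the higher genes 1573, against 1403 for all genes. Counted per kilobase, word A occurred 0.152 times in the higher genes against 0.0445 in all genes, word B 0.235 against 0.0692, and word C 0.115 times in the lower genes against 0.0286. The words kept the leading 2 ranks for the higher genes and the leading rank for the lower genes in each of 16 alternative fits. A match is a run of letters in an annotated UTR and does not by itself mark a binding site.

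Read the other way, from the word to the difference, 21.6% of the genes with word A or B were higher with siRNA 1 and 3.20% lower, against 4.01% higher among the genes without either. The words were chosen by these same calls, so the shares given here are no separate support for them. With at least 2 copies of word B, 32.1% of 162 genes were higher, and with the 8 letters GGACTTAA 31.5% of 336 genes were. None of the 5 genes with at least 2 copies of those 8 letters was called. Of the genes with word C, 20.8% were lower and 6.25% higher, against 3.36% lower among genes without it, and with at least 2 copies 32.4% of 34 genes were lower. The 3′ UTRs of genes with word A or B had a median of 2789 bases, against 1215 without either. Those with word C had 3105.5, against 1333 without it. With at least 2 copies of word B or of word C the medians were 4006.5 and 4144 bases. The median log2 difference was 0.09 for genes with word A or B, -0.09 for genes with word C and 0.01 for all genes tested. Where the letters stood only in the coding part or the 5′ UTR, the shares were smaller: 9.51% of such genes were higher for word A, 7.62% for word B and 14.7% for GGACTTAA, and 7.78% were lower for word C. Each of these sets lacked only its own letters in the 3′ UTR, so its genes could hold another of the words there.

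**Figure D2:**
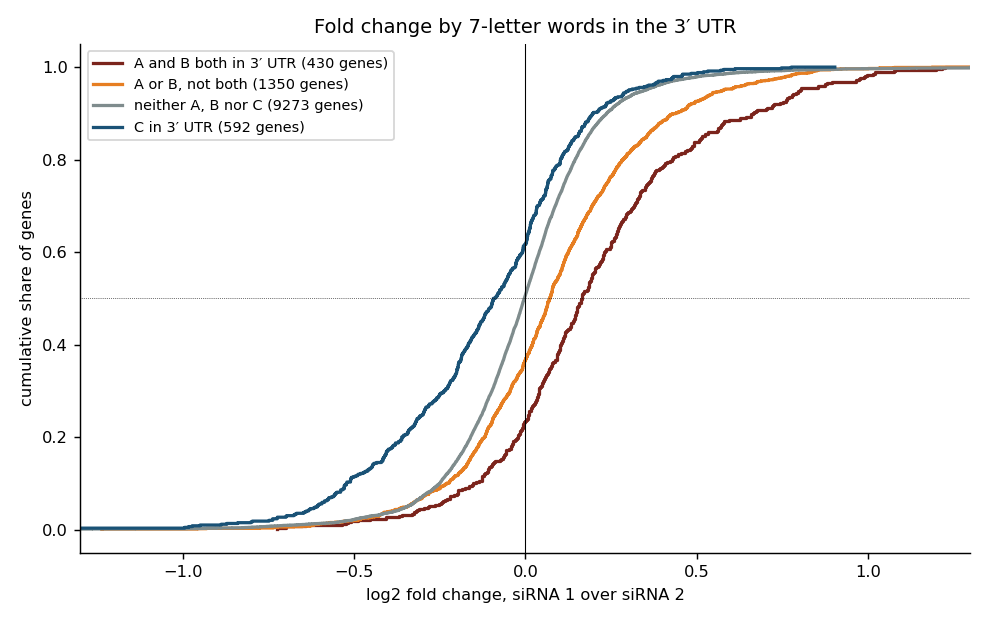
Cumulative share of genes (vertical axis, %) up to a given log2 fold change of siRNA 1 over siRNA 2 (horizontal axis), by the words in the 3′ UTR. The curve of the 430 genes with words A and B lies furthest right (median 0.16), followed by the 1350 genes with only 1 of them (0.07), while the curve of the 592 genes with word C, some of which also hold A or B, lies left (-0.09).

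No source used here gives the siRNA sequences, so whether either siRNA can pair with these words was not tested. The annotated Usp40 transcript ENSMUST00000187758 holds each set of letters once, both in its coding part on the minus strand: GGACTTAA in exon 13 of 32 (chr1:87909773-87909797) and GTTATAC in exon 7 of 32 (chr1:87923464-87923488). Its 3′ UTR of 153 bases holds none of them. The coding stretches are shown because Usp40 is the transcript both reagents target.
Usp40 exon 13: aagcgtgtgGGACTTAAcgtttgat
Usp40 exon 7: atactagctGTTATACattccccct
Among the 1679 mature mouse microRNAs of RefSeq, 1 has a seed that pairs with word C, mmu-miR-344h-3p, and none has a seed that pairs with word A or B. Its sequence is given with the seed, bases 2 to 8, in capitals.
mmu-miR-344h-3p: gGUAUAACcaaagcccgacugu

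The control libraries showed on which side each difference lay. Of the 790 genes higher with siRNA 1, 691 (87.5%) had a control mean nearer to siRNA 1, with a median log2 difference from control of 0.01 for siRNA 1 and -0.39 for siRNA 2. In 527 of them the siRNA 1 libraries overlapped the control libraries while every siRNA 2 library lay below every control library. Of the 494 lower genes, 344 (69.6%) had a control mean nearer to siRNA 1 (medians -0.05 for siRNA 1 and 0.31 for siRNA 2), and over all genes tested the share was 68.4%. The placement of the lower genes differed for the 141 called in every fit that left out 1 library. Of these, 68 (48.2%) lay nearer to siRNA 1, with medians of -0.295 for siRNA 1 and 0.232 for siRNA 2. Of the 317 such higher genes, 296 (93.4%) lay nearer to siRNA 1, with medians of 0.0025 and -0.536. By word, of the 385 higher genes with word A or B, 357 lay nearer to siRNA 1 (92.7%), with a median of -0.01 for siRNA 1 and -0.45 for siRNA 2. Of the 389 higher genes with neither word 320 did (82.3%), with medians of 0.05 for siRNA 1 and -0.34 for siRNA 2. Of the 123 lower genes with word C, only 38 lay nearer to siRNA 1 (30.9%), with a median of -0.36 for siRNA 1 and 0.11 for siRNA 2, whereas of the 366 lower genes without it 301 did (82.2%; medians -0.00 and 0.36). As a description of these libraries, the higher genes thus lay low under siRNA 2 both with word A or B and with neither, and somewhat lower with it. Among the lower genes, those with word C lay low under siRNA 1, while those without it lay near the controls under siRNA 1.

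**Figure D3:**
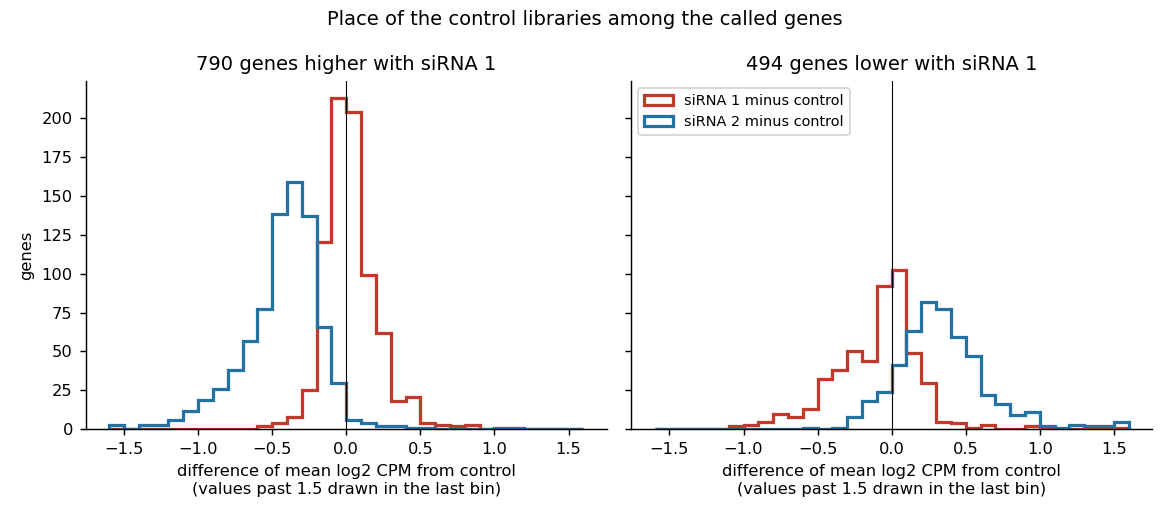
Histograms of the difference in mean log2 CPM between each siRNA group and the controls (horizontal axis) by number of genes (vertical axis), for the 790 higher genes and the 494 lower genes. For the higher genes siRNA 1 (red) centres on 0.01 and siRNA 2 (blue) on -0.39, and for the lower genes siRNA 1 centres on -0.05 and siRNA 2 on 0.31.

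By the rule for naming genes, which asks for at least 5 CPM on average and for a call in every fit that left out 1 library, the 12 largest rises with siRNA 1 over siRNA 2 ran from 1.02 to 1.32 on the log2 scale. Cox5a (ENSMUSG00000000088, chromosome 9, 57428557 to 57439709), a nuclear-encoded subunit of cytochrome c oxidase, had 158, 128 and 144 CPM with siRNA 1 and 65.5, 55.6 and 52.4 CPM with siRNA 2, against 202, 158 and 150.1 CPM in controls. The siRNA groups did not overlap, and only siRNA 2 lay below every control library. Cox5a was 2.50-fold higher with siRNA 1 (log2 fold change 1.32 with SE 0.0944, edgeR adjusted p = 4.17e-05). Rcn2, a calcium-binding protein of the endoplasmic reticulum (ER), had 127, 104 and 106 CPM with siRNA 1 and 57.3, 44.1 and 43.9 CPM with siRNA 2, against 133, 135 and 113 CPM in controls (log2 fold change 1.23 with SE 0.111, edgeR adjusted p = 8.42e-05). Vdac1, the main channel of the outer mitochondrial membrane, had 451, 385 and 414 CPM with siRNA 1 and 199.98, 169.7 and 169.6 CPM with siRNA 2, against 490.3, 411 and 420.1 CPM in controls. It was 2.33-fold higher (log2 fold change 1.22 with SE 0.0813, edgeR adjusted p = 3.76e-05), and again the siRNA 1 and control libraries overlapped. Ywhah, an adaptor that binds phosphorylated serines, had 474, 446 and 484 CPM with siRNA 1 and 224, 196 and 193 CPM with siRNA 2, against 526, 434 and 452 CPM in controls (log2 fold change 1.20 with SE 0.0698, edgeR adjusted p = 1.68e-05).

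Psap, 1 of the same 12 genes and the precursor of the saposins that activate lysosomal lipid breakdown, had 1783, 1713 and 1785 CPM with siRNA 1 and 1026, 796 and 763 CPM with siRNA 2, against 1609, 1864 and 1701 CPM in controls. It was the most abundant of the 12, at 2.05-fold (log2 fold change 1.04 with SE 0.0978, edgeR adjusted p = 8.48e-05). Slc40a1, which encodes the iron exporter ferroportin, had 44.0, 41.7 and 40.2 CPM with siRNA 1 and 20.5, 19.6 and 19.8 CPM with siRNA 2, against 37.8, 33.5 and 31.5 CPM in controls. Unlike the genes above, its control libraries lay between the siRNA groups without touching either (log2 fold change 1.08 with SE 0.0745, edgeR adjusted p = 3.76e-05). The other large rises were Sprr1a, a precursor of the cornified envelope (log2 fold change 1.11), Pdcl3 (1.08), Arl2bp, which binds the small GTPase ARL2 (1.07), the kinase gene Hipk3 (1.03), the cytochrome b5 reductase gene Cyb5r4 (1.03) and AU040320 (1.02). Sprr1a lost its call with the length trend removed (adjusted p = 0.0722), and the value of AU040320 is uncertain because it overlaps Zmym4 on the other strand. Word A or B stood in the 3′ UTR of 9 of these 12 genes and, with the coding parts of Arl2bp and Cyb5r4, somewhere in the transcript of 11 of them, as in 24.5% of all genes. Sprr1a held neither. None of the 12 held word C in its 3′ UTR.

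By the same rule the 12 largest falls ran from -1.96 to -0.80 on the log2 scale. H2bc4 (chromosome 13, 23868182 to 23876891), a core histone gene, had 13.0, 13.8 and 14.2 CPM with siRNA 1 and 40.1, 60.5 and 58.3 CPM with siRNA 2, against 7.45, 5.37 and 7.64 CPM in controls. Both siRNAs lay above the controls, and siRNA 1 was at 0.257 of the siRNA 2 level (log2 fold change -1.96 with SE 0.153, edgeR adjusted p = 6.7e-05). Histone gene copies are near-identical and most histone transcripts lack a poly(A) tail, so the H2bc4 value is uncertain. Hook1, an adaptor that links cargo to microtubules, had 27.8, 25.1 and 25.8 CPM with siRNA 1 and 49.1, 53.2 and 54.8 CPM with siRNA 2, against 41.2, 47.7 and 41.3 CPM in controls. The controls lay between the siRNA groups, nearer to siRNA 2 (log2 fold change -0.995 with SE 0.0768, edgeR adjusted p = 4.17e-05). Pde3b, a phosphodiesterase that breaks down cyclic AMP, had 15.3, 15.1 and 12.4 CPM with siRNA 1 and 29.5, 27.9 and 27.0 CPM with siRNA 2, against 24.4, 24.8 and 23.1 CPM in controls (log2 fold change -0.97 with SE 0.098, edgeR adjusted p = 0.000113).

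Ptgfrn, a membrane protein that inhibits the prostaglandin F receptor, had 116, 129 and 118 CPM with siRNA 1 and 237, 208 and 229 CPM with siRNA 2, against 181, 229 and 257 CPM in controls. For Ptgfrn the siRNA 2 and control libraries overlapped and siRNA 1 lay below both (log2 fold change -0.89 with SE 0.0698, edgeR adjusted p = 4.17e-05). Lpgat1, a lysophospholipid acyltransferase, had 89.6, 106 and 93.4 CPM with siRNA 1 and 177, 169.7 and 183 CPM with siRNA 2, against 111, 135 and 126 CPM in controls (log2 fold change -0.87 with SE 0.0715, edgeR adjusted p = 4.36e-05). Gpnmb, a transmembrane glycoprotein of lysosomes and the cell surface, showed the opposite placement, with 18.5, 17.4 and 16.2 CPM under siRNA 1 and 32.9, 31.9 and 36.4 CPM under siRNA 2, against 17.9, 16.7 and 17.1 CPM in controls. Its siRNA 1 libraries overlapped the controls and its siRNA 2 libraries lay above them (log2 fold change -0.96 with SE 0.0877, edgeR adjusted p = 7.14e-05). Among the other falls were Islr (-0.99), the ER oxidase gene Ero1b (-0.84), Kctd21 (-0.82), the tight junction gene Cldn19 (-0.80) and the Arf GTPase-activating gene Adap1 (-0.80), all as log2 fold changes. Islr shares its locus with Islr2 on the same strand and is uncertain. Word C stood in the 3′ UTR of 6 of the 12 falls, namely Hook1, Pde3b, Ptgfrn, Lpgat1, Ero1b and Cldn19, and word A or B in none. In the first 5 of these every siRNA 1 library lay below every control library, and in Cldn19 siRNA 1 overlapped the controls.

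**Figure D4:**
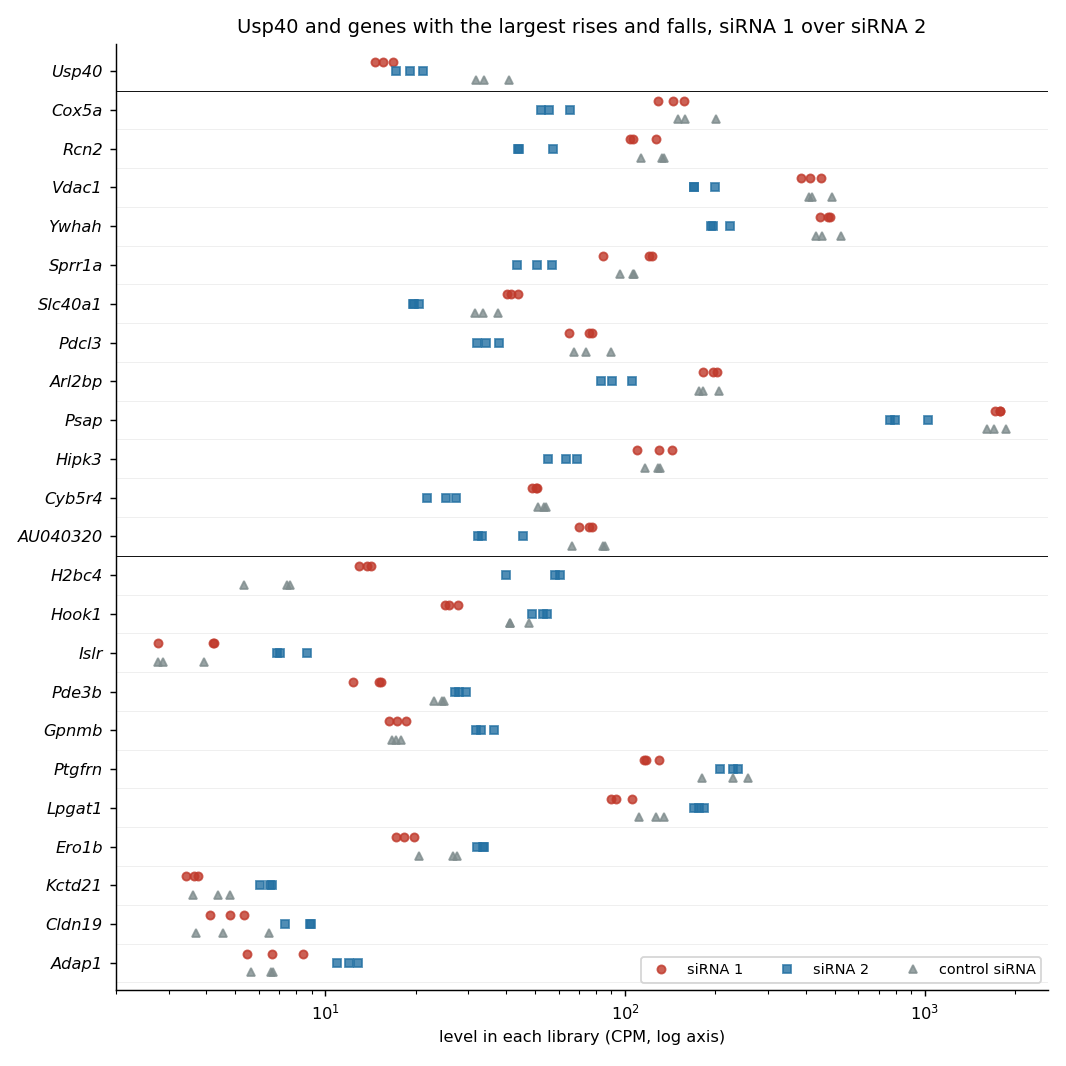
CPM per library (log axis) of Usp40, the 12 largest rises and 11 of the 12 largest falls of siRNA 1 over siRNA 2, with siRNA 1 as red circles, siRNA 2 as blue squares and controls as grey triangles. In the rises the grey triangles sit mostly with the red circles (for Cox5a 158, 128 and 144 CPM with siRNA 1 and 150.1 to 202 CPM in controls), while in Hook1, Pde3b and Ptgfrn they sit nearer the blue squares.

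The genes of the NRF2 list that passed the test were all higher with siRNA 1. NRF2, encoded by Nfe2l2, switches on detoxifying, glutathione and iron-storage genes under oxidative stress and is held down by KEAP1. Of 41 tested members of the NRF2 list, 21 were higher with siRNA 1 and none lower, against 6.74% and 4.22% of all genes, with a median log2 difference of 0.29 against 0.01 over all genes. 13 of the 21 were called in every fit that left out 1 library, and leaving out replicate 3 of siRNA 1 left 13. By edgeR none of the 41 was lower even at an unadjusted p under 0.05, and none was called lower by edgeR, DESeq2 or limma-voom in any alternative fit. Hmox1, the heme-degrading enzyme, had 142, 157 and 168 CPM with siRNA 1 and 90.3, 104 and 92.0 CPM with siRNA 2, against 103, 109 and 111 CPM in controls. Here siRNA 1 lay above the controls and siRNA 2 overlapped them (log2 fold change 0.71 with SE 0.0789, edgeR adjusted p = 0.000228). The glutathione transferase Gsta4 had 147, 158 and 171 CPM with siRNA 1 and 87.1, 107 and 96.4 CPM with siRNA 2, against 133, 149.8 and 135 CPM in controls, so that in this gene siRNA 2 lay below the controls (log2 fold change 0.72 with SE 0.0832, edgeR adjusted p = 0.000295). Pgd, of the NADPH-producing pentose phosphate pathway, had 220.2, 236 and 261 CPM with siRNA 1 and 156, 167 and 158 CPM with siRNA 2, with controls between them at 198, 210.1 and 208 CPM (log2 fold change 0.58 with SE 0.0712, edgeR adjusted p = 0.000407).

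The glutathione transferase Gsta3 (log2 fold change 0.90) had 16.6, 16.4 and 19.3 CPM with siRNA 1 and 9.07, 10.6 and 8.26 CPM with siRNA 2. Across the 41 genes the median log2 difference from control was 0.14 for siRNA 1 and -0.21 for siRNA 2. Only 1 of the 21 higher genes held word A or B in its 3′ UTR, against 49.7% of all higher genes. The list holds few such genes, 2 of 41 against 15.5% of all genes, so at most 2 of the higher genes could hold either word. With the length trend removed 24 members were higher and none lower. Further members of the list, chosen after their values were seen, were the glutathione-synthesis genes Gclm (0.42) and Gclc (0.39), the pentose phosphate enzyme gene G6pdx (0.41), the ferritin genes Fth1 (0.38) and Ftl1 (0.36), and Gsr, the glutathione reductase gene (0.30). Nfe2l2 itself had 130.1, 122 and 118 CPM with siRNA 1 and 102, 93.5 and 89.2 CPM with siRNA 2, against 125, 103 and 106 CPM in controls (log2 fold change 0.39 with SE 0.0681, edgeR adjusted p = 0.00393). Keap1 had a log2 difference of -0.03. Nqo1, a classical NRF2 target, was low and spread, with 1.10, 5.63 and 5.33 CPM with siRNA 1 and 1.01, 1.40 and 1.65 CPM with siRNA 2, and did not pass the test (edgeR adjusted p = 0.116). Bach1, a repressor of Hmox1 and related genes, was also singled out after its values were seen. It had 43.0, 52.1 and 43.9 CPM with siRNA 1 and 72.0, 73.1 and 76.3 CPM with siRNA 2, against 52.8, 67.9 and 68.9 CPM in controls (log2 fold change -0.67 with SE 0.0817, edgeR adjusted p = 0.000404), and its 3′ UTR holds word C.

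Integrins are the alpha-beta receptors that anchor podocytes to the basement membrane. Of 35 tested integrin and focal adhesion genes, 5 were higher and 5 lower with siRNA 1, which is 28.6% called against 11.0% of all genes (median log2 difference -0.04). Itgav, the alpha V subunit, had 195, 192 and 174 CPM with siRNA 1 and 111, 83.2 and 94.3 CPM with siRNA 2, against 181, 192 and 176 CPM in controls (log2 fold change 0.97 with SE 0.094, edgeR adjusted p = 9.67e-05). Itgb1, the beta 1 subunit shared by most integrins, had 967, 942 and 931 CPM with siRNA 1 and 1246, 1236 and 1255 CPM with siRNA 2, against 1199, 1240.4 and 1196 CPM in controls (log2 fold change -0.39 with SE 0.0567, edgeR adjusted p = 0.00113). Itgav was thus low under siRNA 2 and Itgb1 under siRNA 1, and each lay with the controls under the other siRNA. The talin partner gene Vcl (0.72, overlapping Ap3m1 on the other strand) and the kindlin gene Fermt2 (0.57) were higher. Of the 5 higher genes 4 held word A or B, as did 6 of all 35. Of the 5 lower genes 2 held word C, as did 2 of all 35. The higher count was 6 without replicate 2 of siRNA 1 and 3 without any other library. The lower count was 3, 14 and 1 without replicates 1, 2 and 3 of siRNA 1, and 2, 4 and 2 without replicates 1, 2 and 3 of siRNA 2.

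Of 28 tested stress-fibre and contractile genes 7 were higher and 1 lower with siRNA 1, also 28.6% called (median log2 difference 0.12). Palld, which cross-links actin bundles, had 175, 192 and 173 CPM with siRNA 1 and 115, 95.6 and 106 CPM with siRNA 2, with controls between at 159.5, 159 and 163 CPM (log2 fold change 0.78 with SE 0.0749, edgeR adjusted p = 8.55e-05). The actin-binding genes Tagln2 (0.57) and Tpm1 (0.41) were higher too, and both were low under siRNA 2 relative to controls. Only 3 of the 7 were called in every fit that left out 1 library: without replicate 3 of siRNA 1 or replicate 1 of siRNA 2, 3 were higher, and without replicate 2 or 3 of siRNA 2, 4 were. The balance of 7 to 1 moved with the fit: without replicate 2 of siRNA 1, 8 were higher and 6 lower. With the length trend removed from all 6 libraries, 8 were higher and 1 lower. The lower count was 0 without replicate 3 of siRNA 1 or replicate 1 or 3 of siRNA 2. Acta2, smooth muscle actin, was called in the whole set (0.63, edgeR adjusted p = 0.0177) but not in 4 of those fits.

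Of 24 tested matrix proteases and their inhibitors, 1 was higher, 7 were lower and 16 were not called, against 4.22% lower among all genes, with a median log2 difference of -0.17. Mmp14, a membrane-bound collagenase, had 57.9, 64.4 and 61.0 CPM with siRNA 1 and 80.7, 85.0 and 80.0 CPM with siRNA 2, against 49.4, 68.5 and 70.8 CPM in controls (log2 fold change -0.42 with SE 0.0673, edgeR adjusted p = 0.00222). Timp2, an inhibitor that also helps MMP14 activate MMP2, had 671, 734 and 708 CPM with siRNA 1 and 899.9, 872 and 882 CPM with siRNA 2, against 636, 682 and 694 CPM in controls (log2 fold change -0.32 with SE 0.0602, edgeR adjusted p = 0.00543). In both genes siRNA 1 overlapped the controls and siRNA 2 lay above them. None of the 24 members held word C in its 3′ UTR, so none of the 7 lower genes could. The call on Mmp14 and Timp2 was made in every fit that left out 1 library, whereas the count of lower members was 11 without replicate 2 of siRNA 1 and 3 without replicate 3 of siRNA 1 or replicate 3 of siRNA 2, and 4 without replicate 1 of siRNA 2. The single higher call was lost without replicate 3 of siRNA 1 or any 1 library of siRNA 2, and with the length trend removed. Basement membrane genes gave 2 higher and 1 lower, Fbln1 (-0.49), of 20 tested, which is 15% called against 11.0% of all genes. 4 were lower without replicate 2 of siRNA 1, 2 were lower without replicate 2 of siRNA 2, 1 was higher without replicate 3 of siRNA 1 or any 1 library of siRNA 2, and 4 were higher with the length trend removed.

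Of 23 tested targets of YAP and TEAD, the nuclear partners that respond to cell stretch, 5 were higher and 1 lower, against 6.74% and 4.22% of all genes, and the 5 were called in every fit that left out 1 library. Without replicate 2 of siRNA 1 more were lower (8) than higher (6), and without replicate 3 of siRNA 1 or replicate 1 or 3 of siRNA 2 none was lower. Ankrd1 had 219, 243 and 252 CPM with siRNA 1 and 156, 166 and 153 CPM with siRNA 2, with controls between at 207, 202 and 187 CPM. The growth factor gene Ccn2 (log2 fold change 0.57), the tissue factor gene F3 (0.49) and the kinase gene Lats2 (0.47) were higher as well. Of 29 tested NF-kB targets, cytokines and chemokines 6 were higher and 1 lower (median 0.20), which is 24.1% called against 11.0% of all genes. None of the 6 held word A or B, which stood in only 2 of the 28 members with an annotated 3′ UTR. Ccl2, which attracts monocytes, had 55.1, 50.3 and 56.7 CPM with siRNA 1 and 28.6, 30.2 and 31.9 CPM with siRNA 2, against 58.5, 42.9 and 43.2 CPM in controls (log2 fold change 0.84 with SE 0.0764, edgeR adjusted p = 6.76e-05). Ptgs2, the inducible cyclooxygenase, had 11.0, 11.1 and 16.1 CPM with siRNA 1 and 6.55, 6.14 and 7.39 CPM with siRNA 2, with controls between at 10.1, 8.51 and 8.94 CPM (log2 fold change 0.92), and the neutrophil chemokine Cxcl1 was higher too (0.82). The higher count of this list was 11 without replicate 2 of siRNA 1, 3 without replicate 3 of siRNA 1 and 10 with the length trend removed, and the lower count was 2 without replicate 1 of siRNA 1 and 0 without replicate 3 of siRNA 1 or replicate 1 of siRNA 2.

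Of 56 DNA replication and S phase genes 2 were higher and 6 lower, which is 14.3% called against 11.0% of all genes. Mcm4, a subunit of the replicative helicase, had 353, 354 and 350.1 CPM with siRNA 1 and 202, 159.7 and 174 CPM with siRNA 2, with controls at 349.8, 346 and 325 CPM (log2 fold change 0.99 with SE 0.0785, edgeR adjusted p = 4.24e-05). The other was Slbp, which binds the stem-loop of histone transcripts and is counted with S phase here. It had 205, 178 and 195 CPM with siRNA 1 and 106, 95.3 and 89.4 CPM with siRNA 2, against 219.6, 208 and 171 CPM in controls (log2 fold change 1.00 with SE 0.0756, edgeR adjusted p = 4.17e-05). Both held word A or B, as did 8 of the 55 S phase genes with an annotated 3′ UTR. The 6 lower genes, which differed by -0.37 to -0.21, were not called in the fits without replicate 3 of siRNA 1 or replicate 3 of siRNA 2. The lower S phase count was 4 without replicate 1 of siRNA 1, 1 without replicate 1 or 2 of siRNA 2, and 13 with the length trend removed (10 with the block as well). Without replicate 2 of siRNA 1, 6 were higher and 10 lower. Among 26 histone genes, which end in the stem-loop that SLBP binds where they are replication-dependent, 2 were higher and 4 lower. That is 23.1% of the histone genes called. The linker histone gene H1f2 was at -0.73 and H2bc4 is given above. The higher histone count was 6 without replicate 2 of siRNA 1, 1 without replicate 1 or 2 of siRNA 2 and 0 without replicate 3 of siRNA 1 or of siRNA 2, and the lower count was 2 without replicate 2 of siRNA 2. Of 60 G2 and mitosis genes 3 were higher, among them Birc5, the survivin gene (0.56), and 1 was lower. That is 6.67% called, below the 11.0% of all genes, with a median log2 difference of -0.10. At an unadjusted edgeR p under 0.05, 3 were higher and 18 lower. The lower count at the adjusted p was 17 without replicate 2 of siRNA 1, 8 with the length trend removed (10 with the block as well), and 0 without replicate 3 of siRNA 1 or replicate 1 or 3 of siRNA 2. The higher count was 1 in the fits without replicate 3 of siRNA 1 or any 1 library of siRNA 2.

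Of 36 BCL2 family genes and caspases 3 were higher, all with word A or B, and 3 were lower, 2 of them with word C. That is 16.7% called, against 11.0% of all genes. In the whole list 8 of the 36 held word A or B and 5 held word C, against 15.5% and 5.16% of all genes. The survival gene Bcl2 (-0.55) and the pore-forming family member Bok (-0.53) were among the lower genes. Without replicate 2 of siRNA 1, 6 were higher and 5 lower. With the length trend removed 5 were lower. Of 39 p53 targets 7 were higher and 1 lower, which is 20.5% called. Zmat3, an RNA-binding p53 target, had 170.1, 163 and 173 CPM with siRNA 1 and 104, 84.6 and 88.9 CPM with siRNA 2, against 184, 189 and 163 CPM in controls (log2 fold change 0.88). The cyclin gene Ccng1 (0.48) and the receptor gene Eda2r (0.46) were higher and Sesn1, a stress-response gene, lower (-0.52). Of the 7 higher p53 targets 4 held word A or B, as did 7 of all 39. The higher count was 12 without replicate 2 of siRNA 1 and 4 without replicate 3 of siRNA 2.

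Genes for ribosomes, proteasomes and mitochondria had small differences that were mostly higher where called, and these counts moved with single libraries. The called share was 19.8% for cytosolic ribosomal, 28% for proteasome and 12.8% for mitochondrial ribosomal genes, against 11.0% of all genes. It was 38.5% for the mitochondrial genome and 2.35% for nuclear oxidative phosphorylation genes. Of 86 cytosolic ribosomal protein genes 17 were higher and none lower by edgeR, even at an unadjusted p under 0.05 (median log2 difference 0.24), but the count was 81 without replicate 2 of siRNA 1, 8 without replicate 2 of siRNA 2, 3 without replicate 1 of siRNA 1 and 2 without any other library. It was 24 with the length trend removed, with a median of 0.10. Of 50 genes named as proteasome genes 13 were higher and 1 lower (median 0.16), against 31 higher without replicate 2 of siRNA 1 and 3, 3, 6 and 2 higher without replicate 3 of siRNA 1 and replicates 1, 2 and 3 of siRNA 2. The subunit genes Psmc6 (0.35) and Psmb5 (0.31) were among them, while the largest differences were in Psmc3ip (0.79) and Psme3ip1 (0.40), which were taken up by the start of their names, encode no subunit and overlap other counted genes. Of 78 mitochondrial ribosomal protein genes 10 were higher, led by Mrps14 (0.80), and 5 of the 10 held word A or B, as did 14 of all 78. The count was 34 without replicate 2 of siRNA 1, 3 without replicate 3 of siRNA 1, and 4, 6 and 2 without replicates 1, 2 and 3 of siRNA 2. Of 13 genes of the mitochondrial genome 5 were higher, against 1 once the length trend was removed, 0 without replicate 3 of siRNA 1, and 1 and 2 without replicates 1 and 3 of siRNA 2. Among 85 nuclear oxidative phosphorylation genes 2 were higher, with Cox5a the largest, and 56 were without replicate 2 of siRNA 1.

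Of 45 tested ubiquitin-specific protease genes, the family of Usp40, none was higher by edgeR (3 at an unadjusted p under 0.05) and 3 were lower, which is 6.67% called against 11.0% of all genes. Without replicate 2 of siRNA 1 these counts were 1 and 7, and without replicate 3 of siRNA 1 or any 1 library of siRNA 2 they were 0 and 1. Usp22, which deubiquitinates histones, had 130.3, 152 and 142 CPM with siRNA 1 and 187, 185 and 197 CPM with siRNA 2, against 143, 140.1 and 164 CPM in controls (log2 fold change -0.42), so that siRNA 2 lay above the controls. Usp49 (-0.38) and Usp25 (-0.21) were the others. Of 33 ubiquitin-conjugating E2 genes 6 were called, or 18.2%: 5 were higher, each with word A or B, among them Ube2d1 (0.61), Ube2j1 (0.51) and Ube2d3 (0.40). The 1 lower E2 gene, Ube2e3 (-0.45), held word C. Among all 33 E2 genes 10 held word A or B and 3 held word C, against 15.5% and 5.16% of all genes. The words were chosen by these same calls. Without replicate 2 of siRNA 1, 10 of the E2 genes were higher, and without replicate 3 of siRNA 1 or replicate 2 or 3 of siRNA 2, 3 were.

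Of the 23 tested podocyte identity genes 2 were higher and 1 lower, a called share of 13.0% that is near the 11.0% of all genes. Without replicate 2 of siRNA 1 these counts were 2 and 5, without any 1 of the other libraries 1 was higher and none lower, and with the length trend removed 5 were higher. Cd2ap, which links the slit diaphragm to actin, had 371, 433 and 395 CPM with siRNA 1 and 324, 293 and 311 CPM with siRNA 2, against 369, 458 and 404 CPM in controls (log2 fold change 0.37 with SE 0.0709, edgeR adjusted p = 0.00619). Podxl, the main sialoprotein of foot processes, had a log2 difference of -0.11 (edgeR adjusted p = 0.673). Markers of other cells summed to 130 to 152 CPM with siRNA 1 and 126 to 137 CPM with siRNA 2 for 8 mesangial genes, 1898 to 1946 CPM and 1797 to 2035 CPM for 10 parietal and tubular genes, 21.8 to 23.9 CPM and 25.0 to 27.6 CPM for 4 endothelial genes, and 93.5 to 97.3 CPM and 78.1 to 86.2 CPM for 5 immune genes. 9 of 17 immune genes, Adgre1, Itgam and Tyrobp among them, had no count in any library. In contrast, Csf1r had 4807 counts over all 9 libraries, Cd14 3203 and Cd68 1245. In the immune list Ptprc was higher (2.97, 3.13 and 2.84 CPM with siRNA 1, 0.705, 1.09 and 0.933 CPM with siRNA 2). That call was absent with DESeq2, and the part of other cells in the results was not tested.

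**Figure D5:**
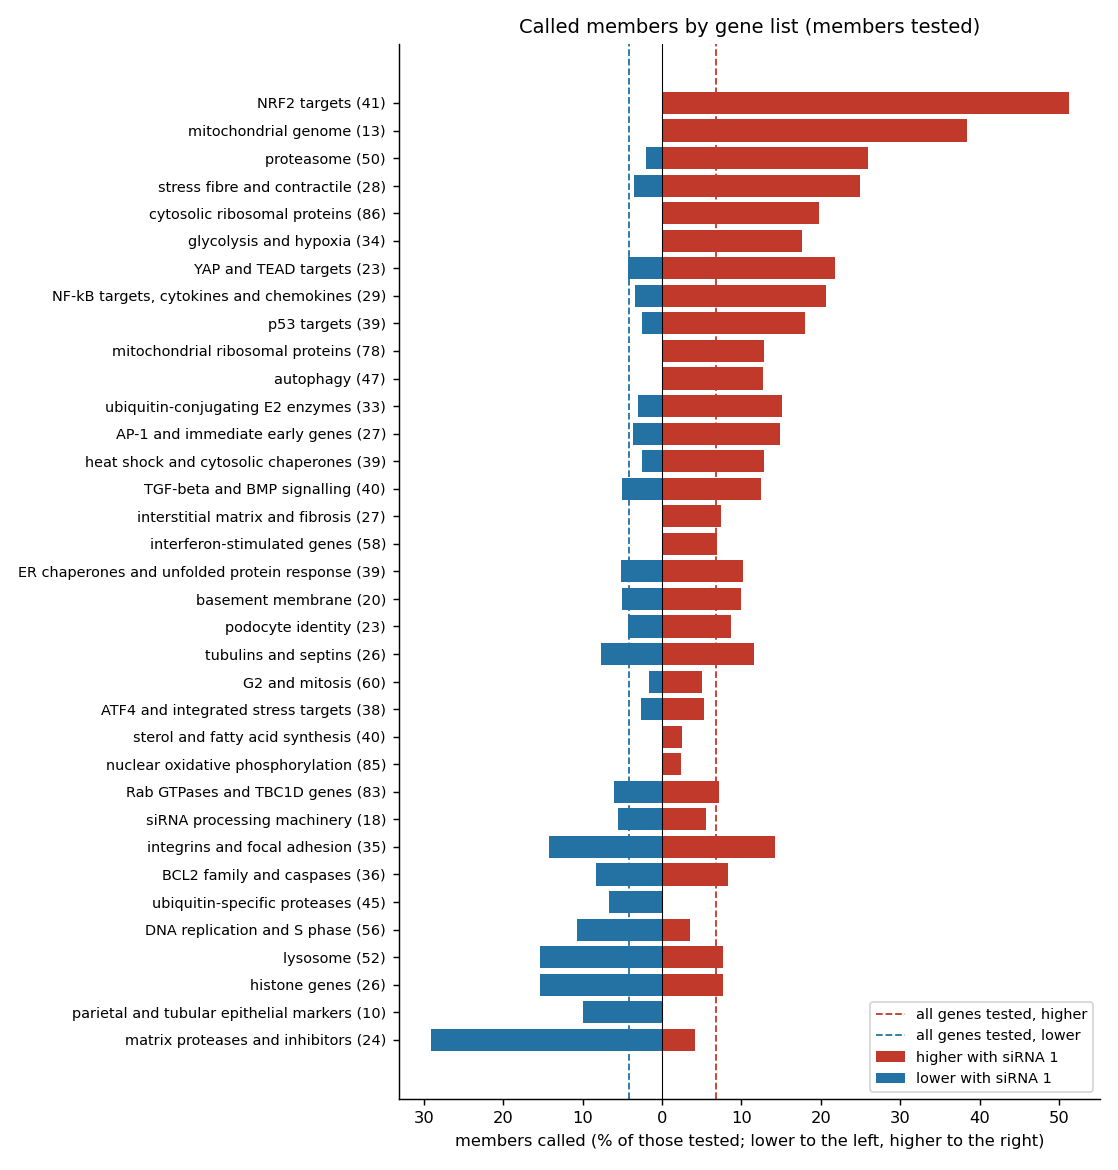
Share of tested members (horizontal axis, %) called higher (red) or lower (blue) with siRNA 1 for each gene list with at least 10 tested genes, with dashed lines at 6.74% and 4.22% for all genes. The NRF2 list stands furthest to the right with 21 of 41 members higher, and matrix proteases hold 7 of 24 members lower.

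The called share of the lists that follow ran from 11.1% for the siRNA machinery to 23.1% for the lysosome, against 11.0% of all genes. Endoplasmic reticulum chaperone and stress genes gave 4 higher and 2 lower of 39, with the ER oxidase gene Ero1a (0.71) and the co-chaperone gene Dnajc3 (0.48) below the controls in both siRNA groups. The higher count was 8 without replicate 2 of siRNA 1 and 2 without replicate 3 of siRNA 1 or any 1 library of siRNA 2, and the lower count was 3 and 1 in those fits, except 2 without replicate 2 of siRNA 2. Lysosomal genes gave 4 higher, all with word A or B and including the sialidase gene Neu1 (0.43), and 8 lower, including the calcium channel gene Mcoln1 (-0.34), of 52. In this list 10 of the 52 held word A or B, against 15.5% of all genes. The higher count was 8 without replicate 2 of siRNA 1 and 2 without replicate 3 of siRNA 1 or of siRNA 2. The lower count was 16 with the length trend removed, 14 without replicate 2 of siRNA 1, 2 without replicate 3 of siRNA 1 or replicate 1 of siRNA 2, and 4 without replicate 2 or 3 of siRNA 2. Heat shock and cytosolic chaperone genes gave 5 higher and 1 lower of 39, with Dnajb6 (0.55) and Hspa1b (0.50). The higher count was 11 without replicate 2 of siRNA 1 and 2 without replicate 3 of siRNA 1 or replicate 2 or 3 of siRNA 2. Rab and TBC1D genes of vesicle traffic gave 6 higher and 5 lower of 83, from Rab8b (0.78) to Tbc1d8b (-0.52). Without replicate 2 of siRNA 1 these counts were 9 and 14, without replicate 3 of siRNA 1 they were 3 and 3, without any 1 library of siRNA 2 they were 4 and 3, and with the length trend removed 8 were lower. Among AP-1 and immediate early genes, Myc (57.2, 63.9 and 68.9 CPM with siRNA 1, 46.1, 44.8 and 42.8 CPM with siRNA 2) was higher and Klf4 (-0.53) lower. Of 27 tested 4 were higher and 1 lower, and 2 were higher without replicate 3 of siRNA 2. Of 18 genes of the siRNA machinery, Ago3 was lower (-0.47) and Prkra higher (0.27), and neither call was made in every fit that left out 1 library.

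The authors' deposited table holds its own comparison of the siRNAs, with 589 genes higher and 403 lower with siRNA 1 at an adjusted p under 0.05. Of the genes called in the authors' deposited table, 570 and 370 were also called in the same direction from the counts here, and none was called in the opposite direction by edgeR.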

How the data were processed

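The members and gene lists were chosen with earlier results of these data known. Per the labels, poly(A) RNA (1250 ng of total RNA, 12 PCR cycles, strand-specific kit) was sequenced as paired 36 bp reads. Per the submitters' processing notes and the labels, CLC Genomics Workbench 23.02, DESeq2 and GRCm39 were used; aligner settings, annotation release and strand use in counting are not stated in any source used here. The deposited table holds, per the file headers, for each library TPM, RPKM, total read counts and a signal (the authors' scaled CPM), and the authors' comparisons as log2 fold changes, linear folds and p-values; 3210 filler p-values of 0 were left out. RPKM was used only for gene length. The deposited read counts were tested.

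Genes were filtered with filterByExpr, scaled with TMM and tested with edgeR 4.0.16 in R 4.3.3 (robust quasi-likelihood fit, group as the only term, 6 libraries, Benjamini-Hochberg over 11716 genes, adjusted p under 0.05), a procedure tested on simulated counts. The biological coefficient of variation was 6.82%. Log2 CPM used a prior count of 2. Reads carry no molecular identifiers, so counting precision is not that of molecules. No replicates were near duplicates (chi-square per degree of freedom 3.18 to 12.8). Genes were named by rule: Usp40; the 12 largest rises and 12 largest falls called in all leave-one-out fits, with at least 5 CPM on average and no overlap between groups; up to 4 such members of each list, or up to 2 called members. Transcript parts came from the GENCODE annotation of GRCm39, and microRNAs from RefSeq. DESeq2 1.42.0 and limma 3.58.1 (voom) were alternatives, beside other scaling and filters, a replicate block, removal of the length trend, a fit of all 9 libraries and a minimum log2 size of 0.5. Some single genes that the rule takes are not reported here.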

Additional observations from a re-analysis of the deposited data

Results flagged for a closer look

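Genes in which the siRNAs lay on opposite sides of the controls were picked out because every library of 1 group lay on one side of all control libraries and every library of the other group on the other side. In 23 of the 138 lower genes that met the naming rule, every siRNA 1 library was below and every siRNA 2 library above all controls. They include Hook1, Pde3b, Lpgat1, Ero1b, Bach1, Topbp1 and Stat3. In the 3′ UTR, 14 of the 23 hold word C, while 2 hold word A or B. In 31 of the 309 higher genes that met the rule, every siRNA 1 library was above and every siRNA 2 library below all controls. They include Slc40a1, Mcm4, Ptgs2, Palld, Ankrd1, Pgd, Gclm, G6pdx, Tfrc and Myc. Of the 31, 17 hold word A or B, while 1 holds word C. Over all genes, 5.16% hold word C and 15.5% word A or B. The 23 and the 31 genes are among the calls by which the words were chosen, so these word counts are no separate support. Each of these genes was called between the siRNAs by edgeR; the distance of either group from the controls was not tested here. Of those not given above, Topbp1, a replication checkpoint gene, had 93.7, 99.2 and 95.4 CPM with siRNA 1 and 163, 167 and 173 CPM with siRNA 2, against 121, 142 and 150.4 CPM in controls. Stat3, a cytokine-activated transcription factor gene, had 116, 129 and 118 CPM with siRNA 1 and 193, 173 and 178 CPM with siRNA 2, against 141, 156 and 167 CPM in controls. Tfrc, the transferrin receptor gene, had 148, 155 and 158 CPM with siRNA 1 and 100.1, 96.1 and 106 CPM with siRNA 2, against 114, 117 and 108 CPM in controls. These 3 genes were chosen after their values were seen.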

How the results depend on the processing

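The log2 difference in Usp40 ranged from -0.37 to -0.21 over 16 alternatives and did not pass the test in any of them (adjusted p 0.0653 to 0.359). Leaving out 1 library gave 365 to 1715 higher and 174 to 1680 lower genes. With all 9 libraries in the fit 501 genes were higher and 294 lower, and with a minimum log2 size of 0.5, 248 and 141. With the length trend removed 883 genes were lower, and 768 with the block as well; the cause was not tested. The other scaling, filter and tool alternatives gave 683 to 822 higher and 429 to 594 lower genes. Of 101 called genes named by rule, 0 to 13 lost their call under an alternative, and none changed sign.

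The share of called genes with a control mean nearer to siRNA 1, 80.6% in all, was 76.5% with the length trend removed, 76.9% with the block as well, and 77.5% to 86.8% when 1 library was left out. For the higher genes it was 90.8% with all 9 libraries in the fit, 81.3% with the length trend removed, 82.3% with the block as well, and 85.3% to 92.2% when 1 library was left out. For the lower genes it was 58.8% with all 9 libraries, 64.9% with the replicate block, 61.0% with the minimum size, and 50% to 84.9% when 1 library was left out; the cause was not tested.

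With the replicate block 567 genes were higher, 333 lower, and Usp40 differed by -0.28 (edgeR adjusted p = 0.129). Deviations of same-numbered libraries had correlations of 0.146, -0.137 and -0.0662, which show no pairing by number. Deviations along transcript length enter these values too, so they cannot settle whether same-numbered libraries were handled together.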
